A study of Mus musculus with 24 samples.

Results

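The transcripts of 9 erythroid genes were followed library by library in splenic Tconv CD4+ cells. They comprise the adult α-globin genes Hba-a1 and Hba-a2, the adult β-globin genes Hbb-bs and Hbb-bt, and 5 genes of haem synthesis, iron import, the red cell membrane and erythroid transcription (Alas2, Slc25a37, Slc4a1, Klf1 and Hemgn). These 9 genes of the 55414 listed were taken by symbol from the count table. They were chosen by their counts in these same libraries, so their levels and the size of their changes are given as a description and no test of them is used as support. Each of the 9 had counts, in 16 to 24 of the 24 libraries, and each passed the filter on low counts.

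The 24 libraries hold 4 groups of 6, named here by mitochondrial DNA (mtDNA) and state: resting mtDNA-B6, activated mtDNA-B6, resting mtDNA-NZB and activated mtDNA-NZB. All mice carried the nuclear genome of C57BL/6J, with the mtDNA of C57BL/6J (WT in the labels) or of the NZB strain. The methods state that most experiments of the study used males aged 2 to 3 months. Tconv cells (TE in the labels) were the CD4+ CD25- fraction of splenocytes, obtained with magnetic antibodies by depleting other cells and then removing CD25+ cells. Activated cells had been cultured for 72 h with beads that bind CD3ε and CD28, the T cell receptor complex and its costimulatory receptor, while resting cells had not been activated. The methods state no culture time for the resting cells. Activation and time in culture therefore cannot be told apart in any change given here as a change with activation. The methods name IL-2 together with the beads. The labels do not say which libraries came from separate mice, so p-values measure the spread between these libraries only.

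Erythroid cells mature from committed progenitors to red cells while they accumulate globin mRNA, make haem in the mitochondria, and build a membrane skeleton held by a few abundant transmembrane proteins. The transcription factors GATA1 and KLF1 drive that programme, and KLF1 is known for its action at the adult β-globin promoter. In the mouse the spleen is itself a site of red cell formation, and reticulocytes keep globin mRNA after the nucleus is lost. T cells are not known to use this programme as a whole.

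The count table names genes by Ensembl identifier. In GRCm39 the α-globin genes lie on the plus strand of chromosome 11, Hba-a1 (ENSMUSG00000069919) at chr11:32233186-32234504 and Hba-a2 (ENSMUSG00000069917) at chr11:32246168-32247320. The β-globin genes lie on the minus strand of chromosome 7, Hbb-bs (ENSMUSG00000052305) at chr7:103475730-103482989 and Hbb-bt (ENSMUSG00000073940) at chr7:103461727-103465047. Alas2 (ENSMUSG00000025270) lies at chrX:149330371-149353634 and Klf1 (ENSMUSG00000054191) at chr8:85628557-85631934, both on the plus strand. On the minus strand are Slc25a37 (ENSMUSG00000034248) at chr14:69479297-69522561, Slc4a1 (ENSMUSG00000006574) at chr11:102239650-102257029 and Hemgn (ENSMUSG00000028332) at chr4:46393989-46413506. The promoters, read from the GRCm39 genome as 250 bases before to 50 bases after the start of the transcript that the annotation marks as canonical, were searched on both strands for the GATA letters AGATAA or TGATAA. That start can lie inside the full range of a gene given above, as for Hba-a1, Hbb-bs and Hemgn. These letters were present in 8 of the 9 promoters, and in 17.5% of the 21770 promoters of protein-coding genes of the same length. Slc25a37 was the member without them. The 8 matches are shown with their surroundings because they are what the promoters of these genes share, 5′ to 3′ on the strand of the gene, with the matched letters in capitals (on the opposite strand in Alas2 and Klf1).
Hba-a1, chr11:32233478-32233507: gtccgggcaacTGATAAggattccctgcac
Hba-a2, chr11:32246295-32246324: gtccgggcaacTGATAAggattccctgcac
Hbb-bs, chr7:103477327-103477356: gttctctgcacAGATAAggacaaacattat
Hbb-bt, chr7:103463410-103463439: caatattgaagAGATAAtattgaacagaca
Alas2, chrX:149330316-149330345: tactttgctttTTATCTttagcagaggcct
Hemgn, chr4:46404187-46404216: cccctcacacctgtgcagtgTGATAAagaa
Slc4a1, chr11:102256097-102256126: atgtgggtgagAGATAActctgtttatggg
Klf1, chr8:85628520-85628549: ttgcctgggtcTTATCAgggaagacagcca

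The windows of Hba-a1 and Hba-a2 were the same 30 bases. A CACCC-type motif, written CCNCNCCC, was found in 7 of the 9 promoters, all but Klf1 and Slc25a37, and in 54.6% of all promoters. In the β-globin promoters it lay 59 bases (Hbb-bs) and 34 bases (Hbb-bt) before the start, and these windows are shown because KLF1 is known to bind letters of this kind.
Hbb-bs, chr7:103477210-103477239: attccgtagagCCACACCCtggtaagggcc
Hbb-bt, chr7:103463219-103463248: catctctgaagCCTCACCCtgcagggtaac

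CCAAT was found in 5 of the 9 promoters and in 39.9% of all promoters. These matches describe letters of the genome and are not binding measured in the cells.

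Libraries held 51409 to 6449395 unique molecular identifier (UMI) counts, each standing for an mRNA molecule read at its 3′ end. The smallest was resting mtDNA-NZB replicate 2, in which 3 counts amount to 58.4 CPM (counts per 1000000 counts of the library), and the next was activated mtDNA-NZB replicate 1 with 641467 counts. The summed level of 9 T cell identity genes, Cd3e and Cd4 among them, lay between 3308 and 5806 CPM in all 24 libraries, and 0 of the 9 were called in any comparison. Of 5 T cell activation genes 4 rose and 1 fell with activation in each haplotype. Resting mtDNA-NZB replicate 6 stood apart from the other resting mtDNA-NZB libraries in the genes described here, and the counts of calls that rest on it are given with and without it. Levels are CPM after TMM scaling. Fold changes are log2 values with their standard error (SE) from edgeR's quasi-likelihood fit over the 4 groups, and a gene was called where the adjusted p did not exceed 0.05 and the log2 fold change was 1 or more in either direction.

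Globin transcripts were measured in resting Tconv libraries of both haplotypes at levels that varied widely among libraries. Their share was lower in the activated libraries of the same haplotype, where the α-globin genes were near the counting floor (3 counts) in most libraries. The 4 adult globin genes took 0.0176% to 0.673% of the UMI counts in resting mtDNA-B6 libraries, with a median of 0.126%. In resting mtDNA-NZB libraries they took 0.00830% to 0.321%, with a median of 0.0232%. The highest share was that of resting mtDNA-B6 replicate 1 (0.673%, exact 95% interval 0.666% to 0.681%), followed by resting mtDNA-NZB replicate 6 (0.321%, 0.314% to 0.328%). Each of the other 5 resting mtDNA-NZB libraries lay at or below 0.0289%. Such intervals cover counting error alone, and within each resting group the libraries differed by far more.

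In activated libraries the share was 0.000503% to 0.0173% with mtDNA-B6 (median 0.00108%) and 0.000239% to 0.00236% with mtDNA-NZB (median 0.00139%). The top of the first range was activated mtDNA-B6 replicate 1 (0.0173%, 0.0159% to 0.0186%), next to 0.0176% in the lowest resting mtDNA-B6 library, and activated mtDNA-B6 replicate 5 followed at 0.00592%. In bulk RNA, fewer cells of a type and less RNA per cell cannot be told apart, here and in every result below.

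Hba-a1 and Hba-a2 encode the α-chain of adult haemoglobin. Hba-a1 measured 38.1, 184 and 882 CPM (lowest, median and highest library) in resting mtDNA-B6 cells and 0, 0.54 and 14.2 CPM after activation. With mtDNA-NZB it measured 11.0, 23.6 and 589 CPM at rest and 0, 0.38 and 2.86 CPM after activation. Resting and activated libraries did not overlap in either haplotype. The log2 fold change with activation was -6.11 ± 1.06 for mtDNA-B6 and -7.81 ± 1.44 for mtDNA-NZB.

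Hba-a2 measured 10.1, 80.1 and 606 CPM in resting mtDNA-B6 libraries against 0, 0.32 and 10.6 CPM in activated ones. In mtDNA-NZB libraries it measured 4.68, 23.4 and 213 CPM at rest and 0, 0.16 and 2.17 CPM after activation. The mtDNA-B6 groups overlapped by a narrow margin, between the highest activated and the lowest resting library, and the mtDNA-NZB groups did not overlap. Its log2 fold changes were -5.75 ± 1.05 and -7.03 ± 1.51.

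Hbb-bs and Hbb-bt encode the adult β-chain. Hbb-bs had the most counts of the 9 genes, 32434 over all libraries, and measured 79.6, 732 and 4053 CPM in resting mtDNA-B6 cells and 1.83, 5.00 and 93.0 CPM after activation. With mtDNA-NZB it measured 42.3, 105 and 1822 CPM at rest and 0, 7.32 and 11.7 CPM after activation. Activated mtDNA-B6 replicate 1, at 93.0 CPM, was above the lowest resting mtDNA-B6 library, whereas in mtDNA-NZB all resting libraries were above all activated ones. The log2 fold changes were -5.58 ± 1.10 and -6.21 ± 1.24.

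Hbb-bt measured 49.7, 307 and 1432 CPM in resting and 2.74, 4.67 and 43.6 CPM in activated mtDNA-B6 libraries. It measured 20.3, 57.6 and 847 CPM in resting and 2.47, 6.05 and 9.19 CPM in activated mtDNA-NZB libraries. Neither pair of groups overlapped. It was the only one of the 4 globin genes with a count in all 24 libraries, and its log2 fold changes were -5.23 ± 0.93 and -4.99 ± 1.00.

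Alas2 encodes the erythroid form of the enzyme that starts haem synthesis in the mitochondrion. It measured 4.11, 22.2 and 129 CPM in resting mtDNA-B6 libraries and 0, 0 and 2.04 CPM after activation, with no overlap. In mtDNA-NZB libraries it measured 0, 2.31 and 75.4 CPM at rest and 0, 0.07 and 0.65 CPM after activation, and the library at 0 in the resting group was the smallest one. The log2 fold changes were -6.19 ± 1.12 and -6.09 ± 1.40. The annotated end of Alas2 overlaps Apex2 on the opposite strand, those of Hbb-bs and Slc25a37 overlap the noncoding genes Gm74438 and Gm63459 in the same way, and the sources used here do not say whether counting used strand.

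Slc4a1 encodes band 3, the anion exchanger that anchors the red cell skeleton. Its levels in resting mtDNA-B6 libraries were 7.48, 38.7 and 139 CPM, and in activated ones 0, 0 and 0.76 CPM, without overlap. With mtDNA-NZB they were 1.11, 6.49 and 143 CPM at rest and 0, 0.16 and 2.86 CPM after activation, with overlap. It had the largest fall of the 9 genes in mtDNA-B6 cells, -7.91 ± 1.30, and its change with mtDNA-NZB was -6.43 ± 1.33.

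Slc25a37, which encodes mitoferrin-1, imports iron into mitochondria, and it behaved differently from the globin genes. It measured 23.8, 25.8 and 43.7 CPM in resting mtDNA-B6 libraries and 8.23, 10.6 and 12.2 CPM after activation. In mtDNA-NZB libraries it measured 21.9, 28.8 and 44.7 CPM at rest and 6.94, 10.3 and 17.2 CPM after activation. All 24 libraries had counts of it, the resting and activated groups did not overlap in either haplotype, and the resting levels of both haplotypes covered the same range. Its log2 fold changes were the smallest of those called among the 9 genes, -1.45 ± 0.19 and -1.53 ± 0.21.

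Klf1, the erythroid Krüppel-like factor, measured 20.1, 47.0 and 105 CPM in resting mtDNA-B6 libraries and 0.33, 1.76 and 8.61 CPM after activation, with no overlap. In mtDNA-NZB libraries it measured 0, 9.94 and 44.3 CPM at rest and 0, 0.60 and 2.92 CPM after activation, and the smallest library again gave the 0 at rest. Its log2 fold changes were -4.41 ± 0.58 and -3.62 ± 0.71. Its highest resting mtDNA-B6 library was replicate 5, not replicate 1, which was highest for all 4 globin genes.

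Hemgn encodes hemogen, a nuclear protein of blood-forming and erythroid cells, and it was the only one of the 9 genes not called with activation in either haplotype. It measured 9.06, 20.6 and 40.1 CPM in resting and 8.67, 13.7 and 19.6 CPM in activated mtDNA-B6 libraries. It measured 0, 3.68 and 41.1 CPM in resting and 11.8, 19.7 and 31.5 CPM in activated mtDNA-NZB libraries. In both haplotypes the groups overlapped, and with mtDNA-NZB 5 of the 6 resting libraries, at 0 to 4.11 CPM, were below every activated library, whereas replicate 6 was above them. The log2 fold changes were -0.69 ± 0.50 with mtDNA-B6 and 0.86 ± 0.56 with mtDNA-NZB.

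**Figure D1:**
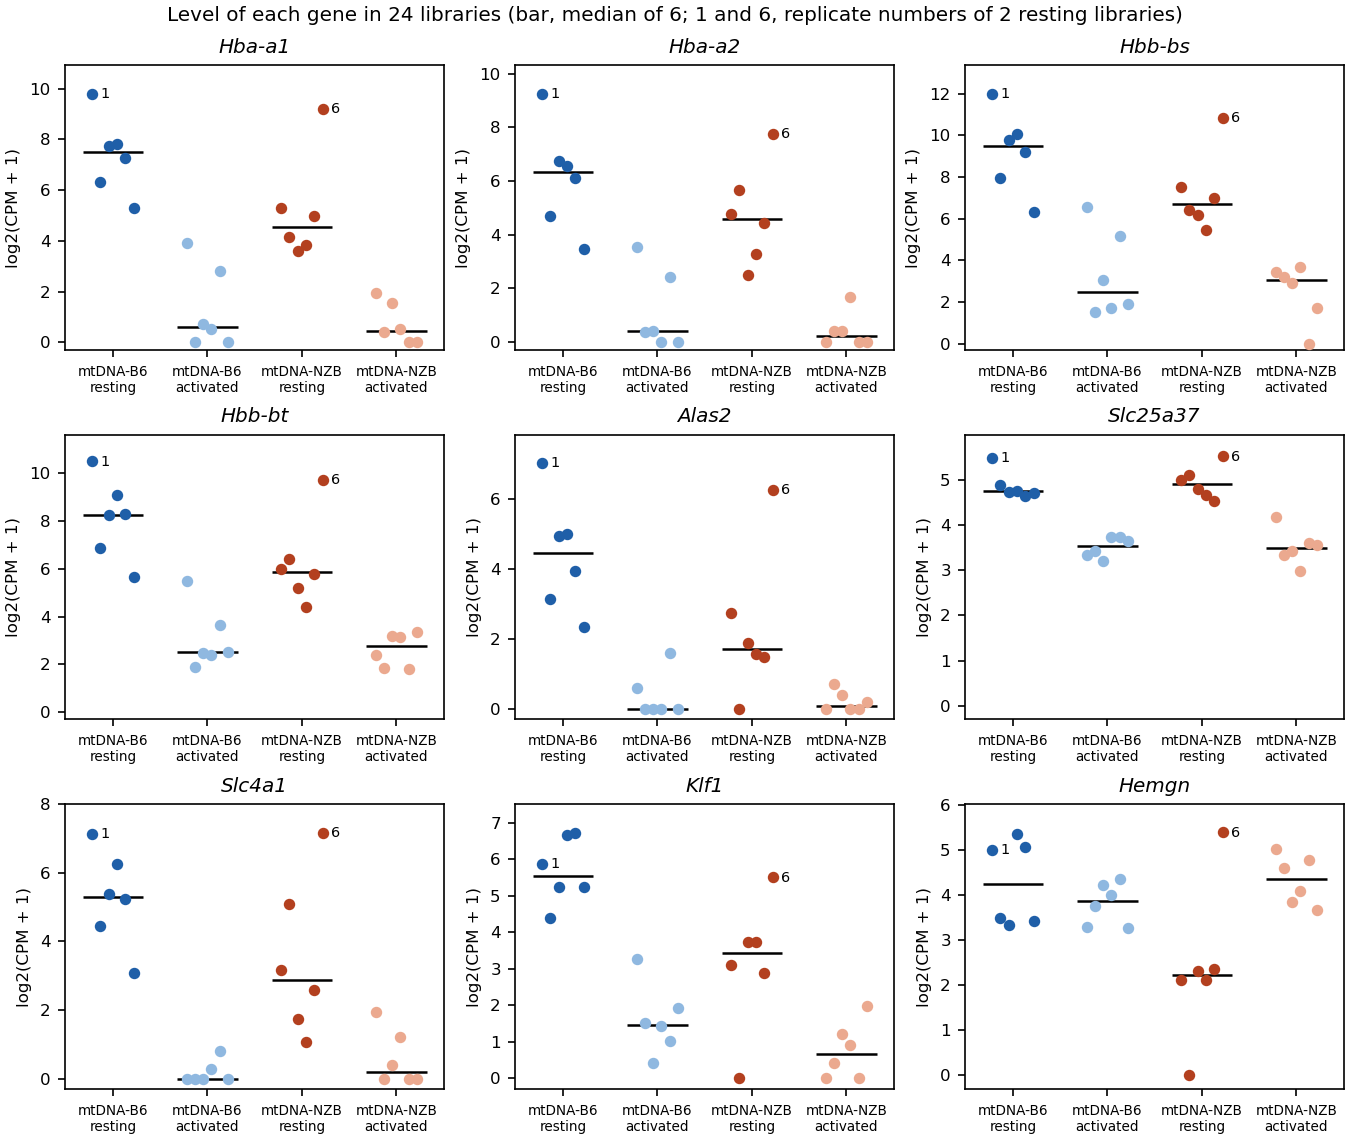
Level of each of the 9 genes as log2 of CPM plus 1, with 1 point per library, a bar at the median of the 6 libraries of a group, and the replicate number beside resting mtDNA-B6 replicate 1 and resting mtDNA-NZB replicate 6. Resting libraries of both haplotypes spread over more than a factor of 10 for the globin genes, activated libraries lie near the bottom for 7 genes, Slc25a37 falls less, and activated Hemgn libraries (8.67 to 31.5 CPM) lie within the resting range.

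With activation 8 of the 9 genes were called lower with the mtDNA-B6 haplotype, beside 10.6% of the 10566 genes tested. With the library sets by reads per UMI (given below) as a term 5 of 9 were called, beside 16.6% of all genes called in either direction. With mtDNA-NZB 8 of 9 were called lower as well, beside 14.0% of all genes. With the resting and activated mtDNA-NZB groups fitted alone 5 of 9 were called, beside 20.2% of all genes called in either direction. The median log2 fold change of the 9 genes was -5.58 and -6.09, against -0.03 and -0.06 over all genes tested. Since the genes were chosen on these values, the counts describe them and support nothing further. Resting and activated libraries did not overlap for 6 of the 9 genes in mtDNA-B6 and for 5 of 9 in mtDNA-NZB, while resting lay wholly above activated for 16.3% and 6.9% of all genes tested. Over the 21 libraries described below the mtDNA-NZB groups did not overlap for 8 of the 9 genes, beside 36.3% of all genes in either direction. Hemgn was higher after activation and the other 7 higher at rest, and resting lay wholly above activated for 18.7% of all genes.

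Of all libraries, leaving out resting mtDNA-NZB replicate 6 moved the mtDNA-NZB values of 8 of the 9 genes most, and Klf1 moved most without activated mtDNA-NZB replicate 6, to -4.74. The log2 fold change of Hba-a1 became -5.32, that of Hba-a2 -5.21, that of Hbb-bs -4.24, that of Hbb-bt -2.82, that of Alas2 -3.63 and that of Slc4a1 -3.55. In mtDNA-B6 cells the log2 fold changes of the globin genes were lowest without activated replicate 1 (Hba-a2 -7.09, Hbb-bs -6.84) and were smallest in size without resting replicate 1 (-4.42 and -4.57), and Alas2 ranged from -7.89 without activated replicate 5 to -5.12 without resting replicate 1. Without resting mtDNA-NZB replicate 6, 8 of the 9 genes were still called lower with mtDNA-NZB, beside 13.5% of all genes. Hemgn was then called higher, at 2.41 ± 0.46, beside 10.2% of all genes called higher.

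**Figure D2:**
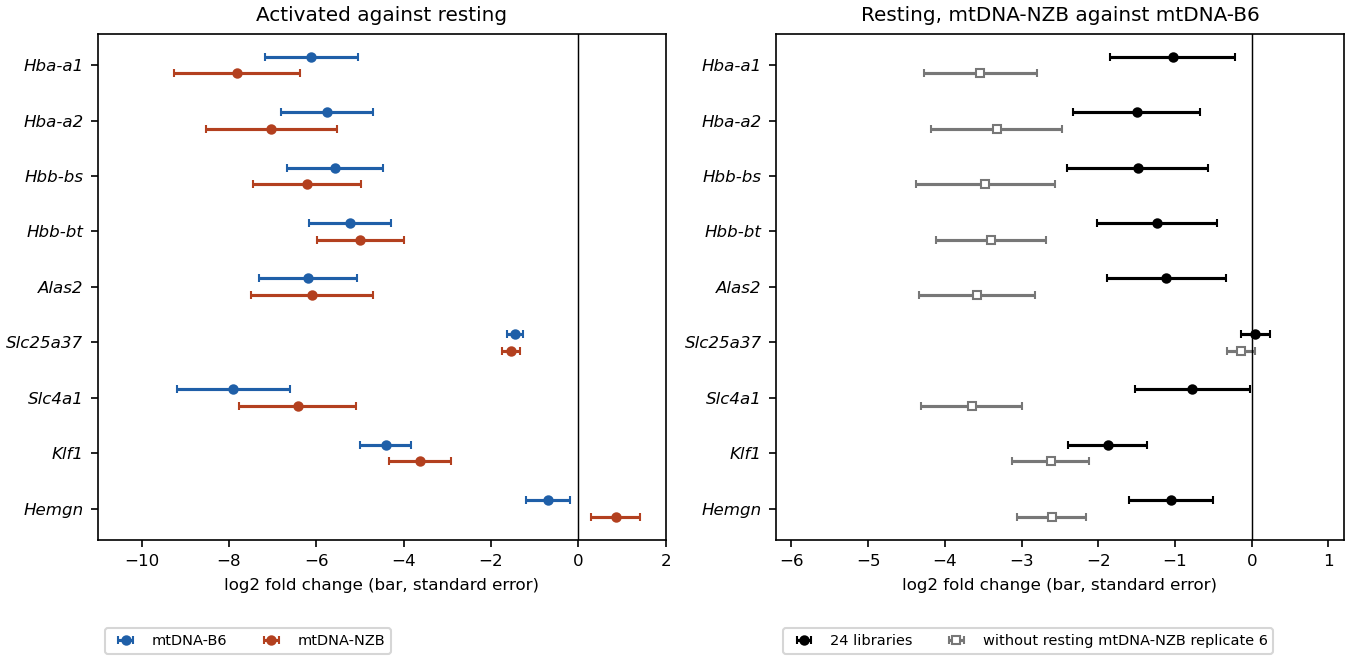
Log2 fold change with its SE for each of the 9 genes in the activation comparisons of both haplotypes and in the comparison of resting mtDNA-NZB with resting mtDNA-B6, the last also without resting mtDNA-NZB replicate 6. Activation values lie between -4.99 and -7.91 for the globin genes, Alas2 and Slc4a1, and the resting values of all 9 genes are lower when that library is left out, Slc25a37 by the least (0.05 to -0.14).

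The copies of each globin chain are close to each other where reads are counted. The transcripts of Hba-a1 and Hba-a2 were identical at 646 of 647 aligned bases (99.8%), and 75.0% of the 75-base windows of Hba-a1 occurred unchanged in Hba-a2. Hbb-bs and Hbb-bt were identical at 609 of 661 bases (92.1%), with 60.3% of windows shared. How reads common to both copies were assigned is not given in the sources used here, so the split between copies, and any loss of shared reads from a chain, is uncertain.

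With that limit, the makeup of the globin RNA varied less among libraries than its amount. In the 13 libraries with at least 20 counts of each chain, α-chain counts were 0.146 to 0.373 of β-chain counts, with a median of 0.271. The libraries richest in globin gave 0.271 (95% interval 0.263 to 0.279, resting mtDNA-B6 replicate 1) and 0.300 (0.286 to 0.316, resting mtDNA-NZB replicate 6). Resting mtDNA-B6 replicate 4 was lower, at 0.197 (0.182 to 0.212), and its interval did not reach that of replicate 1. Hba-a1 gave 57.1% to 79.1% of α-chain counts and Hbb-bs 61.6% to 75.1% of β-chain counts. The intervals cover counting error, and the values are not ratios of protein.

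Relative to globin RNA, Alas2 and Slc4a1 kept a narrower range among resting libraries than Hemgn, Klf1 and Slc25a37. In the 11 resting libraries with at least 100 globin counts, Alas2 had 7.87 to 23.2 counts per 1000 globin counts, 2.94 times from lowest to highest, and Slc4a1 13.2 to 44.2, 3.36 times. Hemgn had 4.45 to 54.7, 12.3 times. Klf1 had 8.22 to 206, 25.1 times, and Slc25a37 6.26 to 286, 45.7 times.

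The 3 resting libraries with the least globin had the 3 highest values of Klf1 per globin, 206 (mtDNA-B6 replicate 6), 145 (mtDNA-NZB replicate 4) and 101 (mtDNA-NZB replicate 3). The library richest in globin, resting mtDNA-B6 replicate 1, had 8.22 Klf1 counts per 1000 globin counts, and resting mtDNA-NZB replicate 6 had 12.8. Between these ends the libraries did not follow a single order. For Alas2 the same libraries richest in globin had 18.6 and 21.7. Among listed genes outside the 9, Gata1 per 1000 globin counts ran from 2.99 to 88.8 and Epor from 3.98 to 152. All these ratios share the globin count as their denominator, so they are not independent of each other or of the globin share.

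**Figure D3:**
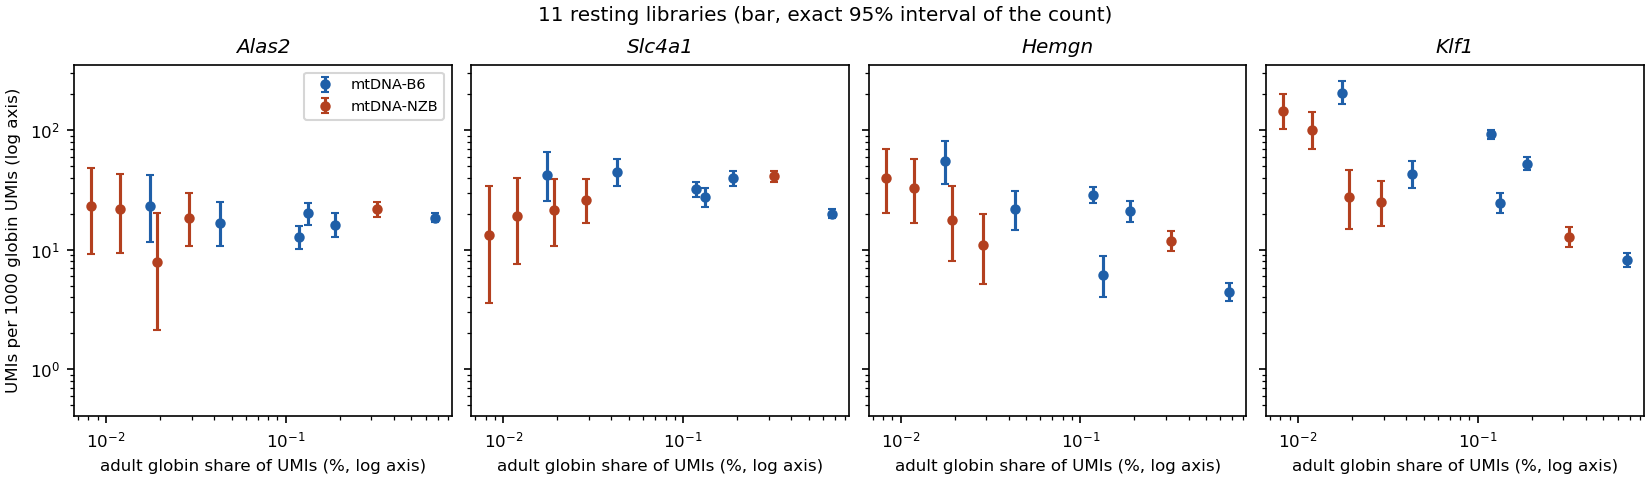
UMI counts of Alas2, Slc4a1, Hemgn and Klf1 per 1000 globin counts in the 11 resting libraries with at least 100 globin counts, against the globin share of each library in percent, both on log axes, with bars for the exact 95% interval of the count. Alas2 and Slc4a1 stay within 7.87 to 44.2 over the resting libraries, while Hemgn (4.45) and Klf1 (8.22) are lowest in the library with the most globin.

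The other genes of the erythroid pathway were taken as 72 related genes in 6 lists, assembled with earlier results of these data known. Of these, 55 passed the filter on low counts and 1, Ahsp, which encodes a chaperone of free α-globin, was not analysed here. Some of the 55 passed that filter only through their resting libraries, where they were high. Examples are Ank1, with activated medians of 0.41 CPM (mtDNA-B6) and 0 CPM (mtDNA-NZB), and Cldn13, with 0.15 and 0 CPM. The falls of such genes are given as a description, and no test of them is used as support. With activation 26 of the 55 fell and 0 rose in mtDNA-B6 cells, beside 10.6% of all genes tested that fell. In mtDNA-NZB cells 21 fell and 0 rose, beside 14.0% of all genes. Without resting mtDNA-NZB replicate 6 these counts were 16 lower and 3 higher, beside 13.5% and 10.2% of all genes. With the resting and activated mtDNA-NZB groups fitted alone 7 were called, beside 20.2% of all genes. All 21 were among the 26, which is 80.8% of the longer list. The groups being compared share no libraries across haplotypes, and the 5 that fell in mtDNA-B6 and were not called in mtDNA-NZB (Gata1, Ppox, Steap3, Uros and Xk) were not called over the 24 libraries in the test of the difference between responses.

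Genes of the red cell surface and skeleton moved furthest, with median log2 fold changes of -5.05 and -3.29. Of the 15 tested, 12 fell in mtDNA-B6 and 11 in mtDNA-NZB, beside 10.6% and 14.0% of all genes. Over the 21 libraries described below, which lack resting mtDNA-NZB replicate 6, 8 fell in mtDNA-NZB, beside 14.6% of all genes. Rhd, of the Rhesus complex, measured 23.1, 54.3 and 82.9 CPM in resting mtDNA-B6 libraries and at most 1.22 CPM after activation, a change of -6.35 ± 0.72. Ank1, ankyrin of the skeleton, had the largest mtDNA-NZB fall of this list, -5.46 ± 0.82, from a resting median of 5.65 CPM to 0 CPM, and -5.36 ± 0.85 over the 21 libraries. Epor, the erythropoietin receptor, fell by 4.12 ± 0.55 in mtDNA-B6, from a median of 27.4 to 1.64 CPM. In mtDNA-NZB it fell by 2.46 ± 0.60, from 5.99 to 1.37 CPM, with -2.36 ± 0.67 over the 21 libraries.

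Of the transcriptional regulators, 5 of the 9 tested fell in mtDNA-B6 (Gata1, Tal1, Nfe2, Gfi1b and Lmo2) and the last 4 of these in mtDNA-NZB, beside 10.6% and 14.0% of all genes. Gata1 measured 7.57, 18.0 and 35.4 CPM in resting mtDNA-B6 libraries and 5.52, 10.9 and 12.4 CPM after activation, a change of -1.07 ± 0.36 (edgeR adjusted p = 0.0162). In mtDNA-NZB libraries it measured 2.28, 7.27 and 23.1 CPM at rest and 9.12, 11.7 and 14.3 CPM after activation, a change of 0.39 ± 0.40 (edgeR adjusted p = 0.430). Gata1 thus stayed well above 0 in all activated libraries, as Hemgn did. Tal1, its partner in erythroid enhancers, fell by 2.94 ± 0.54 and 2.27 ± 0.65 (edgeR adjusted p = 7.6e-05 and 0.00455), the latter -2.13 ± 0.72 over the 21 libraries.

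Of the genes of haem synthesis shared by all cells, 2 of 8 fell in mtDNA-B6 (Uros and Ppox) and 0 in mtDNA-NZB, beside 10.6% and 14.0% of all genes. Cpox, a late enzyme of the pathway, had medians of 98.2 CPM in resting and 106 CPM in activated mtDNA-B6 cells, and of 44.2 and 98.1 CPM in mtDNA-NZB cells. Of the iron genes 2 of 9 fell in mtDNA-B6 (Steap3 and Slc25a38) and 1 in mtDNA-NZB (Slc25a38, which carries glycine into mitochondria), counts near the shares of all genes just given. Tfrc, the transferrin receptor that dividing cells and erythroblasts use, had medians of 1.50 and 2.92 CPM at rest and after activation with mtDNA-B6, and its change of 1.28 ± 0.62 was not called (edgeR adjusted p = 0.0910). With mtDNA-NZB its medians were 1.81 and 4.05 CPM (1.11 ± 0.68, edgeR adjusted p = 0.172).

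Of the maturation genes, 5 of 14 fell in each haplotype: Car1 and Car2, the carbonic anhydrases, Tspo2, Tmcc2 and Cldn13, beside the same 10.6% and 14.0% of all genes. Cldn13, a claudin, fell by 6.19 ± 0.79 in mtDNA-B6 with a change of -5.87 ± 1.08 in mtDNA-NZB, which was -3.86 ± 1.01 over the 21 libraries. The embryonic and θ-like globins had few or no counts. Hbb-y and Hbb-bh2 had 0 counts in all libraries, Hbb-bh1, Hba-x and Hbq1a had at most 1 count in a library, and Hbq1b reached 15 counts (3.72 CPM) in resting mtDNA-B6 replicate 1, the library richest in adult globin. Summed over this list, every resting mtDNA-B6 library had a level above 0 (0.33 to 3.97 CPM), 1 resting mtDNA-NZB library did (replicate 6, 0.40 CPM), and the activated libraries had 0 counts.

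**Figure D4:**
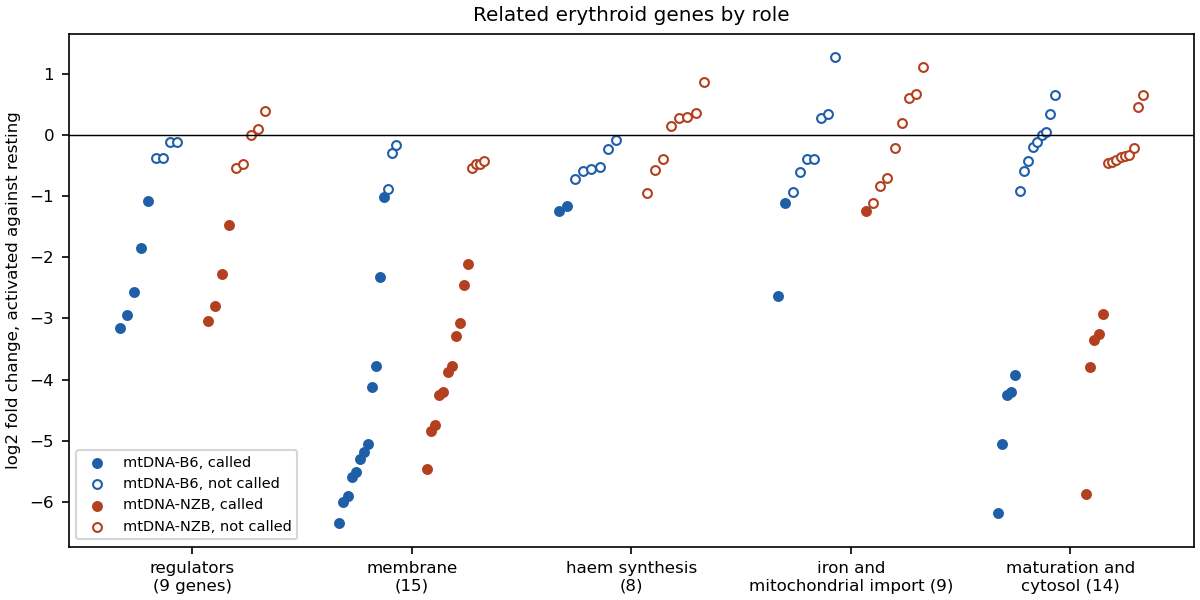
Log2 fold change with activation of the tested related genes by role, for mtDNA-B6 and mtDNA-NZB, with called genes as filled and other genes as open points. The surface and skeleton genes have medians of -5.05 and -3.29, the haem genes of -0.57 and 0.21, and the iron genes of -0.39 and -0.21.

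Resting cells of both haplotypes were then compared, which asks whether erythroid RNA differed before activation. Of the 9 genes, Klf1 was called lower with mtDNA-NZB, by 1.88 ± 0.51 on the log2 scale, beside 0.341% of all genes called lower, and DESeq2 called 0. The other 7 apart from Slc25a37 had values from -0.77 (Slc4a1) to -1.50 (Hba-a2) with SEs of 0.54 to 0.92, and Slc25a37 had 0.05 ± 0.19. No gene of the 9 had groups that did not overlap, beside 1.13% of all genes tested. Of the 55 related genes Cpox was lower (-1.01 ± 0.27, edgeR adjusted p = 0.0444) and the other 54 were not called, with 32 at an unadjusted p under 0.05 (2196 of 10566 over all genes) and 0 called by DESeq2. Epor had -1.68 ± 0.48 (edgeR adjusted p = 0.0564), Gata1 -1.22 ± 0.39 (edgeR adjusted p = 0.0756).

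The resting comparison moved with single libraries in both directions. Without resting mtDNA-NZB replicate 6, 8 of the 9 genes were called lower in mtDNA-NZB cells, beside 2.27% of all genes, and 25 of the related genes were called lower. The values then were -3.54 ± 0.74 for Hba-a1, -3.32 ± 0.85 for Hba-a2, -3.47 ± 0.91 for Hbb-bs and -3.40 ± 0.72 for Hbb-bt. Alas2 had -3.58 ± 0.75, Slc4a1 -3.65 ± 0.66, Klf1 -2.62 ± 0.50 and Hemgn -2.61 ± 0.45, and Slc25a37 again stood apart at -0.14 ± 0.18. Without resting mtDNA-B6 replicate 1, which had the highest globin share, 0 of the 9 genes were called and the log2 fold changes lay near 0 for Hba-a1 (-0.13), Hba-a2 (-0.16), Alas2 (-0.05) and Slc4a1 (-0.20), with -0.47 for Hbb-bs and -0.43 for Hbb-bt. With each library left out in turn, Klf1 stayed between -2.62 and -1.63 and Hemgn between -2.61 and -0.81. The lost Klf1 call thus did not come with a value near 0. Of the 24 libraries left out in turn, 19 gave 0 calls among the 9 genes and 20 gave 0 among the related genes. Apart from replicate 6, leaving out a library gave at most 1 call among the 9 genes, and up to 3 among the related genes (3 without resting mtDNA-B6 replicate 2, beside 1.19% of all genes).

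An earlier match of these counts to mean counts of the study had left out 3 libraries (replicate 6 of both mtDNA-NZB groups and replicate 2 of the resting one), and that match was not repeated here. Over the other 21 libraries, which still include resting mtDNA-B6 replicate 1, 8 of the 9 genes were called lower at rest, beside 2.51% of all genes, and 27 of the related genes. They included Rhd (-2.93 ± 0.41, edgeR adjusted p = 0.0013), Epor (-2.43 ± 0.45, edgeR adjusted p = 0.00519) and Gata1 (-1.94 ± 0.36, edgeR adjusted p = 0.00519). Over these libraries the globin share of resting mtDNA-NZB libraries had a median of 0.0156% and a maximum of 0.0289%, and 2 of the 9 genes and 28 of the related genes did not overlap between the resting groups, as did 5.4% of all genes tested.

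In activated cells 0 of the 9 genes and 0 of the related genes were called between haplotypes, beside 0% of all genes by edgeR. At an unadjusted p under 0.05 there were 0 of the 9 genes and 1 of the 55 related genes, beside 327 of 10566 over all genes, and DESeq2 called 0 of each. The SEs of the 9 genes, for example -2.74 ± 1.93 for Hba-a1 and 0.70 ± 2.71 for Slc4a1, leave wide room for differences in either direction at these counts.

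The difference between the activation responses of the haplotypes was called for 0 of the 9 genes and 0 of the related genes, beside 0% of all genes by edgeR. At an unadjusted p under 0.05 there were 1 of the 9 and 9 of the 55 related genes, beside 1512 of 10566 over all genes, and DESeq2 called 0 of each. The value of Hemgn was 1.55 ± 0.75, and leaving out resting mtDNA-NZB replicate 6 gave 3.10 ± 0.56, still not called. Over the 21 libraries Hemgn was called, at 3.22 ± 0.58, with 7 of the related genes higher, beside 0.878% of all genes. The 7 calls included Gata1 (2.20 ± 0.49, edgeR adjusted p = 0.0439), Cpox, Prdx2, Urod, Glrx5 and Ppox. With the sets of libraries by reads per UMI (given below) as a term over the same 21 libraries, 0 of the 9 genes, 0 of the related genes and 0 of 10826 genes were called by edgeR. A block by label number left 1 of the 9 and 0 of the related genes, beside 0.0739% of all genes. Over these libraries Gata1 rose with activation in mtDNA-NZB cells (1.13 ± 0.39, edgeR adjusted p = 0.0183) and fell in mtDNA-B6 cells (-1.07 ± 0.29, edgeR adjusted p = 0.00371).

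Markers of myeloid cells fell with activation as the erythroid genes did, and those of other cells did not all do so. The summed level of 7 neutrophil genes, S100a8 and S100a9 among them, was 567 to 6949 CPM in resting mtDNA-B6 libraries and 297 to 19919 CPM in resting mtDNA-NZB libraries. After activation it was 2.4 to 45.1 CPM and 1.6 to 169 CPM, and 7 of 7 fell in both haplotypes. All 4 tested granulocyte precursor genes (of 5) and all 4 tested monocyte and macrophage genes (of 8) fell in both as well. The granulocyte precursor sum was 204 to 2121 and 176 to 3276 CPM at rest with mtDNA-B6 and mtDNA-NZB, and 10.1 to 81.3 and 4.6 to 49.9 CPM after activation. The monocyte and macrophage sum was 776 to 2497 and 401 to 2634 CPM at rest, and 17.7 to 73.4 and 8.0 to 107 CPM after activation. C1qa and Cd5l, markers of splenic macrophages, were low at rest (medians of 1.13 and 1.11 CPM for C1qa, and 0.35 and 0.54 CPM for Cd5l) and had no count in either activated group, where C1qb of the same list reached 1.43 CPM. Of the 7 B cell genes 1 fell in each haplotype, near the shares of all genes that fell (10.6% and 14.0%), with sums of 8505 to 13070 and 5680 to 17192 CPM at rest and 2336 to 6077 and 1099 to 5836 CPM after activation. Of 4 platelet genes tested 3 rose in each haplotype, from sums of 8.6 to 54.4 and 11.4 to 50.2 CPM to sums of 73.4 to 519 and 18.5 to 251 CPM, and both CD8 genes rose. Over all 10566 genes 746 rose in mtDNA-B6 and 1000 in mtDNA-NZB. The part of other cells in the erythroid results was not tested.

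Resting mtDNA-NZB replicate 6 had the highest sums of neutrophil (19919 CPM), granulocyte precursor (3276 CPM) and monocyte and macrophage genes (2634 CPM) of all libraries, and the lowest sum of T cell identity genes (3308 CPM). The neutrophil sum did not order the mtDNA-B6 libraries as globin did. Resting mtDNA-B6 replicate 6 had the highest of that group (6949 CPM) and the lowest globin share (0.0176%), and replicate 4 had 582 CPM with a globin share of 0.189%. Granulocyte precursor genes moved with globin within groups, with a Pearson's r over 23 libraries, computed as described below, of 0.714 for Mpo, 0.665 for Ctsg, 0.638 for Prtn3 and 0.632 for Elane. Without the 2 libraries whose globin level was farthest from its group mean, these values were 0.596, 0.467, 0.505 and 0.515.

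The libraries also fell into 3 sets of 8 by reads per UMI (1.88 to 1.96, 2.11 to 2.24 and 2.68 to 2.80), which are sets made from the data. In the middle set the globin share was 0.0432% to 0.673% in 4 resting mtDNA-B6 libraries, 0.0289% in 1 resting mtDNA-NZB library, 0.00592% in 1 activated mtDNA-B6 library and at most 0.00236% in 2 activated mtDNA-NZB libraries. In the highest set it was 0.0176% and 0.118% in 2 resting mtDNA-B6 libraries, 0.00830% to 0.321% in 4 resting mtDNA-NZB libraries and at most 0.00187% in 2 activated mtDNA-NZB libraries. In the lowest set 1 resting mtDNA-NZB library had 0.0119%, and of 7 activated libraries the highest had 0.0173%. In the middle and highest sets every resting library was above every activated one. The difference of the resting haplotypes could not be compared in the lowest set, which held no resting mtDNA-B6 library. Of the activated mtDNA-B6 libraries 5 were in that lowest set, 1 was in the middle set and 0 were in the highest set. Within a set the mtDNA-B6 activation comparison therefore rests on 1 activated library, and activation and set are largely confounded in mtDNA-B6.

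**Figure D5:**
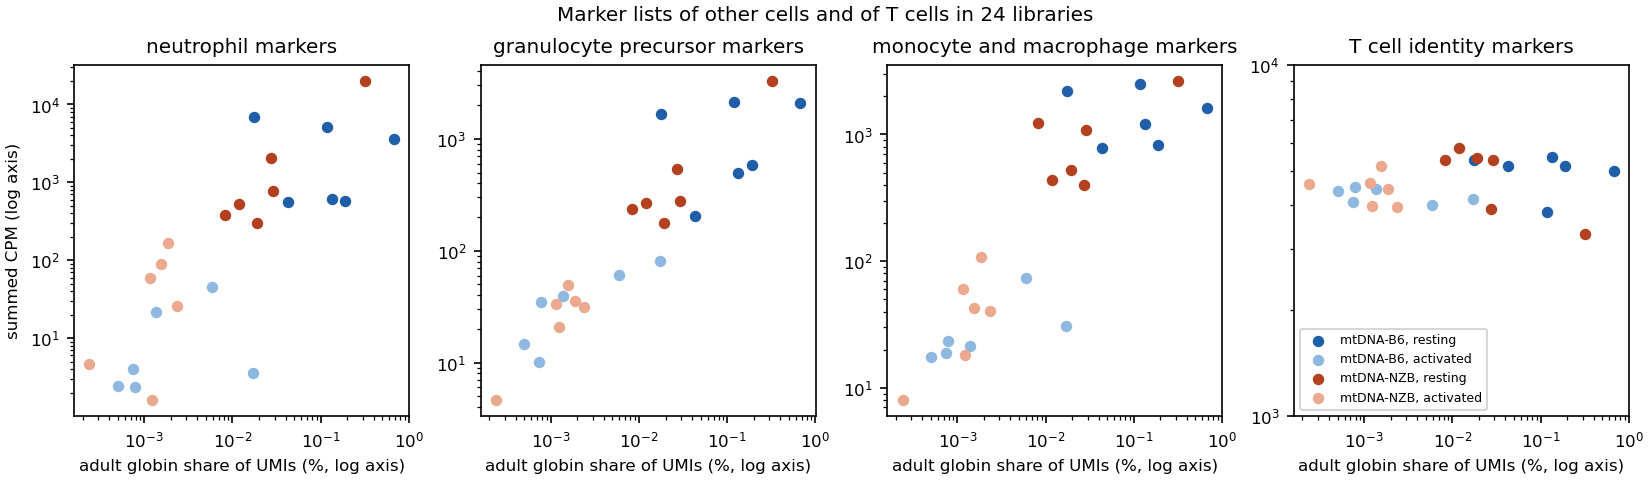
Summed CPM of the neutrophil, granulocyte precursor, monocyte and macrophage, and T cell identity genes in each library against the globin share of that library in percent, on log axes. The T cell identity sum stays between 3308 and 5806 CPM over the whole range of globin, and the neutrophil sum is 297 to 19919 CPM in resting and 1.6 to 169 CPM in activated libraries.

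Genes outside all lists were ranked by how closely their level followed globin within groups, as Pearson's r of log2 CPM after removing group means, over the 23 libraries with at least 500000 UMI counts. The 8 closest were Ces2g (0.802), Mir451a (0.722), Gstm5 (0.708), Prg2 (0.703), Dhrs11 (0.702), Gstm1 (0.702), Nqo2 (0.697) and Tspan33 (0.696). Leaving out the 2 libraries whose globin level was farthest from its group mean, r was 0.657 for Ces2g and 0.651 for Mir451a, and 0.495 to 0.582 for the other 6. The order thus rests in part on those libraries. The Mir451a value is a count of polyadenylated RNA at the gene and not of the mature miRNA. Among the listed genes Tmcc2 (0.903), Alas2 (0.822), Slc4a1 (0.767) and Car2 (0.727) were among the closest. The points share libraries and scaling, and r is given as a description.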

How the data were processed

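Bulk MARS-seq, which reads the 3′ end of polyadenylated RNA, was used to profile 24 libraries, with groups taken from the sample labels. According to the methods, the authors trimmed reads with cutadapt, dropped those under 30 bases, mapped the rest with STAR to the last 1000 bases of GRCm39 genes and counted them with htseq-count. The deposited counts are UMI counts per gene, deduplicated and corrected for saturation by the authors, whole numbers not scaled to library size. A second deposited table holds larger counts and served as an alternative. Reading 3′ ends limits each gene to its last bases, so paralogs and overlapping genes can share reads. The methods give 60 ng of RNA per library and the labels 30 ng. Lysis of red cells is stated for flow cytometry preparations, and not for these. 1 column matched no sample and was not used.

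Counts were scaled by TMM, filtered with filterByExpr (10566 genes tested of 25030 with a count) and fitted with edgeR 4.0.16 (quasi-likelihood, 4 groups in one fit, Benjamini-Hochberg over all genes tested) in R 4.3.3, and tested on simulated data. The SE is the log2 fold change divided by the root of its F statistic. The difference between responses had no fold cut-off. DESeq2 1.42.0 was an alternative, with other scaling, filters, blocks and left-out libraries. Summaries used Python 3.11.15 and scipy 1.17.1. Shares have exact binomial intervals. Libraries of a group were compared pairwise, and the smallest chi-square divided by its degrees of freedom was 2.77, so no library was taken for a repeat deposit of another. This does not show that they came from separate mice. Named genes are the 9 genes, the 3 largest called rises and falls among related genes in each comparison, Gata1, Epor, Ahsp and Tfrc, and the 8 genes closest to globin. Some genes that this rule selects are not reported here. Other genes named were chosen after their values were seen. The 9 genes, the lists and the rules were chosen with earlier results of these data known, and 3 alternatives that combine the 21 libraries with DESeq2, a block or library sets were added after seeing the data.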

Additional observations from a re-analysis of the deposited data

Results flagged for a closer look

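Within groups of 6 libraries, a library was singled out where its gap to the nearest other library, divided by the range of the group, exceeded Dixon's 95% critical value. Chance does this in about 1 in 20 groups, and the genes share libraries, so the values below are not independent of each other.

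Resting mtDNA-B6 replicate 1 stood above its group in 6 of the 9 genes, with 882 CPM of Hba-a1, 606 CPM of Hba-a2, 4053 CPM of Hbb-bs, 1432 CPM of Hbb-bt, 129 CPM of Alas2 and 43.7 CPM of Slc25a37. Its globin share was 0.673%. Its Klf1 level, 57.3 CPM, was within the range of the other 5 libraries.

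Resting mtDNA-NZB replicate 6 stood above its group in 8 of the 9 genes, with 589 CPM of Hba-a1, 213 CPM of Hba-a2, 1822 CPM of Hbb-bs, 847 CPM of Hbb-bt, 75.4 CPM of Alas2, 41.1 CPM of Hemgn, 143 CPM of Slc4a1 and 44.3 CPM of Klf1. Its globin share was 0.321%. The library with the same label number after activation, activated mtDNA-NZB replicate 6, had a globin share of 0.00122%, within its group.

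Activated mtDNA-B6 replicate 1 stood above its group with 93.0 CPM of Hbb-bs, 43.6 CPM of Hbb-bt, 8.61 CPM of Klf1 and a globin share of 0.0173%. It carries the same label number as resting mtDNA-B6 replicate 1. Activated mtDNA-B6 replicate 5 stood out with 2.04 CPM of Alas2 and 0.764 CPM of Slc4a1, and activated mtDNA-NZB replicate 4 with 2.17 CPM of Hba-a2. These last 3 values rest on 8, 3 and 5 counts.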

How the results depend on the processing

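Leaving out each library in turn gave 8 of the 9 genes called with activation of mtDNA-B6 cells and 8 to 9 with mtDNA-NZB. Of the related genes 24 to 29 and 19 to 23 were called, beside 17.2% to 18.7% and 22.1% to 24.8% of all genes. With the library sets as a term 5 of the 9 were called for mtDNA-B6, beside 16.6% of all genes. With the resting and activated mtDNA-NZB groups fitted alone 5 of the 9 and 7 of the related genes were called, beside 20.2% of all genes, where fewer genes were tested. Without the fold cut-off 35 related genes were called for mtDNA-NZB, beside 53.5% of all genes. At rest, the 1 related gene called became 0 with DESeq2, median-of-ratios size factors, the second count table, the 2 groups alone or library sets as a term. It became 2 with no filter or a stricter filter, beside 0.451% and 1.11% of all genes called. Over the 21 libraries, alone, with DESeq2 or with library sets, it became 27, 26 and 22, beside 2.98%, 1.09% and 1.96% of all genes called. The 1 call among the 9 genes at rest became 0 with DESeq2, median-of-ratios size factors, the second count table, the 2 groups alone or library sets. Over the 21 libraries it became 8, 5 and 5 in the same order, beside the same shares. Leaving out each library gave 0 to 25 related genes and 0 to 8 of the 9 at rest. Both upper values came from leaving out resting mtDNA-NZB replicate 6, beside 2.71% of all genes called. The difference between responses had 0 calls with each library left out, but over the 21 libraries 7 related genes (13 with DESeq2) and 1 of the 9 (1 with a block by label number and 2 with DESeq2). Of all genes 1.04% were called over the 21 libraries, 1.08% with DESeq2 and 0.0739% with the block. Over the 21 libraries with library sets as a term it had 0 of each, and with the block 0 related genes. The causes were not tested. No called value changed direction under the alternatives run. Of the log2 fold changes of single genes of the 9 under all alternatives, 1477 lay within 1 SE of the main value and 130 did not. This count does not say whether a call was kept.

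A replicate block by title number gave 3 related genes at rest, beside 0.35% of all genes called. The methods divide isolated cells into resting and activated ones, but no source used here ties a label number to a mouse. Label numbers shared by a resting and an activated library correlated at -0.158 to 0.253 in 9 pairs, and 2 of 9 resting libraries matched their own number best, so the numbers were not read as pairs. A block by label number gave 8 of the 9 genes with activation in each haplotype, and 26 and 22 of the related genes, beside 16.9% and 18.5% of all genes called. The depth of the smallest library (51409 counts) limits its values of single genes.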
